A study of Mus musculus with 4 samples.

Results

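The p53 pathway genes examined here were 32 genes named by symbol, all of which were present in the deposited tables of 55487 genes and all of which passed the filter on low counts. They hold p53 itself, the regulators that restrain it and genes known as its targets in cell death, growth arrest, DNA repair and metabolism. RNA was measured by RNA-seq in 4 libraries of freshly isolated satellite cells, the stem cells of skeletal muscle, which express Pax7: 2 libraries from Rbfox2 cKO mice and 2 from Control mice. In the cKO, an Rbfox2 flox allele was deleted by Pax7CreERT2 after tamoxifen, so recombination is limited to Pax7-expressing cells of the induced animal, and a Rosa26 EYFP reporter marked the recombined cells. The sources used here do not give the alleles and treatment of the Control mice, the age of the animals or whether a library came from a single animal. Rbfox2 encodes a splicing regulator that binds RNA, and the series title ties it to Numb splicing and the Notch pathway during activation.

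The protein p53 (gene Trp53 in the mouse) is a transcription factor that is made continuously and destroyed through the ubiquitin ligase Mdm2. Damage and stress kinases release it from Mdm2, after which it binds paired copies of a decamer motif and activates genes for arrest, repair and death, among them Mdm2 and the phosphatase gene Ppm1d, whose products feed back on it. Because much of this control acts on the protein, the RNA level of Trp53 does not measure p53 activity, and target RNAs can also be set by other factors. Numb, the endocytic adaptor of the series title, has been reported in human cells to bind Mdm2 and p53.

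The deposited counts give each library a total between 68884091 and 101997422. Values below are CPM or TPM. CPM are counts relative to the library's total after TMM scaling, a factor meant to align the bulk of genes between libraries. After it, 70.8% of 16559 genes tested that averaged 1 CPM or more were still lower in cKO 1 than in cKO 2. TPM is relative to the library's sum and per transcript length, and is the scale used to compare levels between genes. The targeted gene Rbfox2 stood at 40.0 and 15.2 CPM in cKO 1 and 2, against 131 and 56.0 CPM in Control 1 and 2, and was lower in cKO (log2 fold change -1.76 and adjusted p = 0.000252 by edgeR's quasi-likelihood test). Numb stood at 40.4 and 60.6 CPM in cKO, against 60.4 and 54.0 CPM in Control (log2 fold change -0.18, adjusted p = 1.00). All 8 satellite cell markers were detected in every library, with a summed TPM of 13815 and 15181 in cKO and 15067 and 14087 in Control, most of it from Sdc4. Pax7 itself stood at 15.9 and 13.5 TPM in cKO, against 7.90 and 6.995 TPM in Control (log2 fold change 0.84, SE 0.33, unadjusted p = 0.0110, adjusted p = 0.556 in edgeR), with no overlap; it was picked out after its values were seen, and its part in the results below was not tested. Summed TPM of 4 endothelial markers was 51.4 and 42.9 in cKO and 34.9 and 36.8 in Control, of 4 macrophage markers 24.5 and 26.1 in cKO and 19.3 and 17.7 in Control, of 4 fibro-adipogenic markers 257 and 172 in cKO and 149.6 and 167 in Control, and of 4 fibre markers 61.2 and 38.0 in cKO and 60.1 and 57.2 in Control. The library cKO 1 stood apart: it had the smallest total, a TMM factor of 1.27 against 0.876 to 0.965 in the other libraries, and a median TPM over all genes of 0.771 against 0.312 to 0.437.

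Plk3 and Ppm1d were called higher in Rbfox2 cKO, and no p53 pathway gene was called lower. In edgeR's quasi-likelihood test, adjusted over 38143 genes, 2 of the 32 genes passed the threshold of 0.05 as higher, 0 as lower and 30 did not pass. Over all genes tested, 0.551% were called, namely 0.364% higher and 0.186% lower, against 6.25% of the 32 genes called higher. Of the 210 genes called, 172 were among the 17210 genes that averaged 1 TPM or more, a larger share than 0.551%. At that level lay 29 of the 32 genes. The 6.25% rests on 2 genes, and the 32 genes were chosen with earlier results of these data known, so these shares are not a test of the set. The median log2 fold change of the 32 genes was 0.06, against 0.06 over all genes tested, with 17 positive and 15 negative values (55.0% of all genes tested were positive). Many of the genes tested were rare. Among those that averaged 1 CPM or more, as 29 of the 32 did, the median was -0.0010 and 49.9% were positive. At an unadjusted p under 0.05 there were 5 of the 32 genes, against 4.83% of all genes tested. With any 1 library left out, neither gene passed, while the log2 fold changes stayed positive, from 1.296 to 2.13 for Plk3 and from 0.75 to 1.92 for Ppm1d. Such a fit leaves a single library in one arm, which is assumed to vary like the other group. With all 4 libraries kept, both calls were also lost with DESeq2 size factors or library totals in place of TMM. They were lost too with other filters on low counts and in limma on TPM with a filter on mean TPM.

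**Figure D1:**
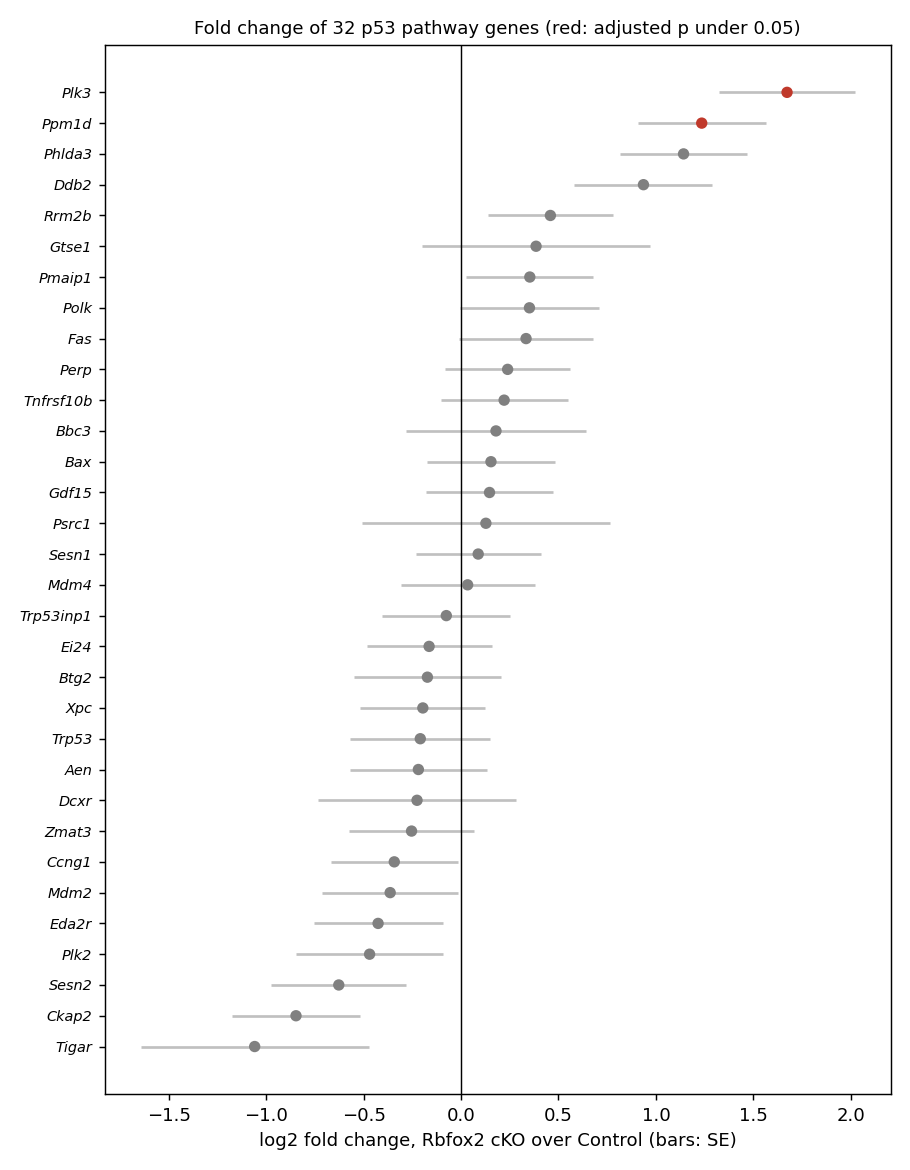
The plot of fold changes gives the log2 fold change of each of the 32 p53 pathway genes, Rbfox2 cKO over Control, from edgeR (points) with its SE (bars), sorted by size. Plk3 at 1.67 and Ppm1d at 1.23 are drawn in red as past the adjusted threshold, Tigar at -1.06 is the lowest and rests on few counts, and most of the other genes lie within 0.5 of 0.

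The promoters of Plk3, Ppm1d and Phlda3 are shown because these genes had the highest fold changes of the 32. Each line gives the 250 bases before the RefSeq start on GRCm38.p6, from 5′ to 3′ on the gene's strand: chr4:117133964-117134213 (minus strand) for Plk3, chr11:85311004-85311253 (plus strand) for Ppm1d and chr1:135765835-135766084 (plus strand) for Phlda3. Capitals mark an exact match to the p53 decamer consensus, which reads the same on both strands, and any TGACG or its reverse complement CGTCA, the core of the cAMP response element, which was searched for after these sequences had been seen.
Plk3: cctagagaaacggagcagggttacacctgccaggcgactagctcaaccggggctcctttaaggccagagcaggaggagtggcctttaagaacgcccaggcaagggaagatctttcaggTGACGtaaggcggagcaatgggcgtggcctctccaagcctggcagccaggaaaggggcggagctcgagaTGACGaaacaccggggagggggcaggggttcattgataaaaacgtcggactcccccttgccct
Ppm1d: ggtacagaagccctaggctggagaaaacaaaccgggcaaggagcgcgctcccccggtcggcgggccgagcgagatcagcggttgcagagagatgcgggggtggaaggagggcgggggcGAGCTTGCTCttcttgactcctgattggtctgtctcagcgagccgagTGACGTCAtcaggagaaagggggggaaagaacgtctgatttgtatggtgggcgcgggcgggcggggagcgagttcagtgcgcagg
Phlda3: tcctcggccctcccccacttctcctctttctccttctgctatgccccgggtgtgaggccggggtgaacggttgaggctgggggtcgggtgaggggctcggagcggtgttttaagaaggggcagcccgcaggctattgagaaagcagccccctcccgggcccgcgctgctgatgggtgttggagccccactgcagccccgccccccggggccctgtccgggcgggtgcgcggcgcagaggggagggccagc
The Ppm1d window held 1 decamer match, which starts 132 bases before the RefSeq start, and the full TGACGTCA, in which TGACG and CGTCA overlap. The Plk3 window held TGACG at 2 places and no decamer match, and the Phlda3 window held neither.

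Of the 32 genes, 24 had a promoter in the RefSeq table, with 33 windows in all because some have several starts. A decamer match was present for 10 of the 24 genes (41.7%), against 8.20% of all 27025 genes with a window. TGACG on either strand was present in 9 of the 33 windows (27.3%), against 17.8% of all windows, and TGACGTCA in 3 of 33, those of Ppm1d, Plk2 and Btg2, against 1.55% of all windows. Of the matches, 7 are printed here with up to 10 bases on each side, since they show the motif in genes of several roles; capitals mark the decamer.
Trp53: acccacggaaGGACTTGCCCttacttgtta
Mdm2: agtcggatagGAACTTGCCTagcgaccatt
Ccng1: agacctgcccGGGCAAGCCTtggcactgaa
Bax: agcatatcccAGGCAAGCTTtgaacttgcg
Aen: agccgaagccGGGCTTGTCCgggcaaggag
Ckap2: ctgtgtctgaAGACATGTCCtgacttgtca
Sesn1: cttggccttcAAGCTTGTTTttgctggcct
On GRCm38.p6 these lie at chr11:69580274-69580303 (plus strand) for Trp53, chr10:117710925-117710954 (minus strand) for Mdm2, chr11:40755452-40755481 (minus strand) for Ccng1, chr7:45467080-45467109 (minus strand) for Bax, chr7:78895927-78895956 (plus strand) for Aen, chr8:22186003-22186032 (minus strand) for Ckap2 and chr10:41887256-41887285 (plus strand) for Sesn1. A match is a string of letters and shows no binding, and the genes were listed as p53 targets in the first place. The other matches were in the windows of Ppm1d, Ei24 and Polk, and among the 10 genes with a match only Ppm1d passed the expression test.

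Among the genes that set p53 activity, Ppm1d was higher in cKO and the other 4 did not pass the test. Ppm1d (ENSMUSG00000020525.17; GRCm38 chromosome 11, 85311244 to 85347066, plus strand) encodes the phosphatase Wip1, which removes activating phosphates from p53 and from damage kinases. It stood at 26.6 and 32.2 CPM in cKO 1 and 2, against 7.68 and 17.3 CPM in Control 1 and 2. The groups did not overlap, and Control 1 was the lowest. The means were 29.4 ± 4.01 CPM in cKO and 12.5 ± 6.80 CPM in Control (SD, n = 2 each), a log2 fold change of 1.23 with SE 0.33 (edgeR's quasi-likelihood test, adjusted p = 0.0341). On the TPM scale it stood at 21.7 and 18.9 in cKO and 4.72 and 10.3 in Control. The log2 fold change was 1.38 without cKO 1, 1.02 without cKO 2, 0.75 without Control 1 and 1.92 without Control 2, and none of these fits called it. The call was also lost in DESeq2, with a log2 fold change of 1.19 and adjusted p = 0.766 (alternatives from 0.0072 to 1.00), and with the replicate number as a block, at 1.34 and adjusted p = 0.196.

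Trp53 was among the more abundant of the 32 genes, with rank 3 by mean TPM. It stood at 199 and 274 CPM in cKO, against 262 and 284 CPM in Control (log2 fold change -0.21, SE 0.36, adjusted p = 1.00), and at 239 and 225 TPM in cKO, against 232 and 258 TPM in Control. The groups overlapped on both scales, and 3.64% of its transcript 50-mers also occur in the pseudogene Trp53-ps. Mdm2, the ubiquitin ligase and a p53 target, stood at 88.4 and 137 CPM in cKO, against 154 and 136 CPM in Control (-0.36, SE 0.35, adjusted p = 1.00). By CPM, only cKO 1 was clearly below the Control libraries. In TPM, both cKO libraries lay below both, at 86.8 and 91.7 in cKO against 109 and 96.7 in Control. Mdm4, the Mdm2 relative that blocks the p53 activation domain, stood at 73.8 and 123 CPM in cKO, against 105 and 86.6 CPM in Control (0.03, SE 0.34, adjusted p = 1.00), with 7.295% of its 50-mers shared with Mdm4-ps. Ccng1, a cyclin that recruits a phosphatase to Mdm2 and is a classical p53 target, stood at 16.6 and 25.2 CPM in cKO, against 26.4 and 26.6 CPM in Control (-0.34, SE 0.32, adjusted p = 1.00). Its groups did not overlap, but cKO 2 was close to both Control libraries.

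**Figure D2:**
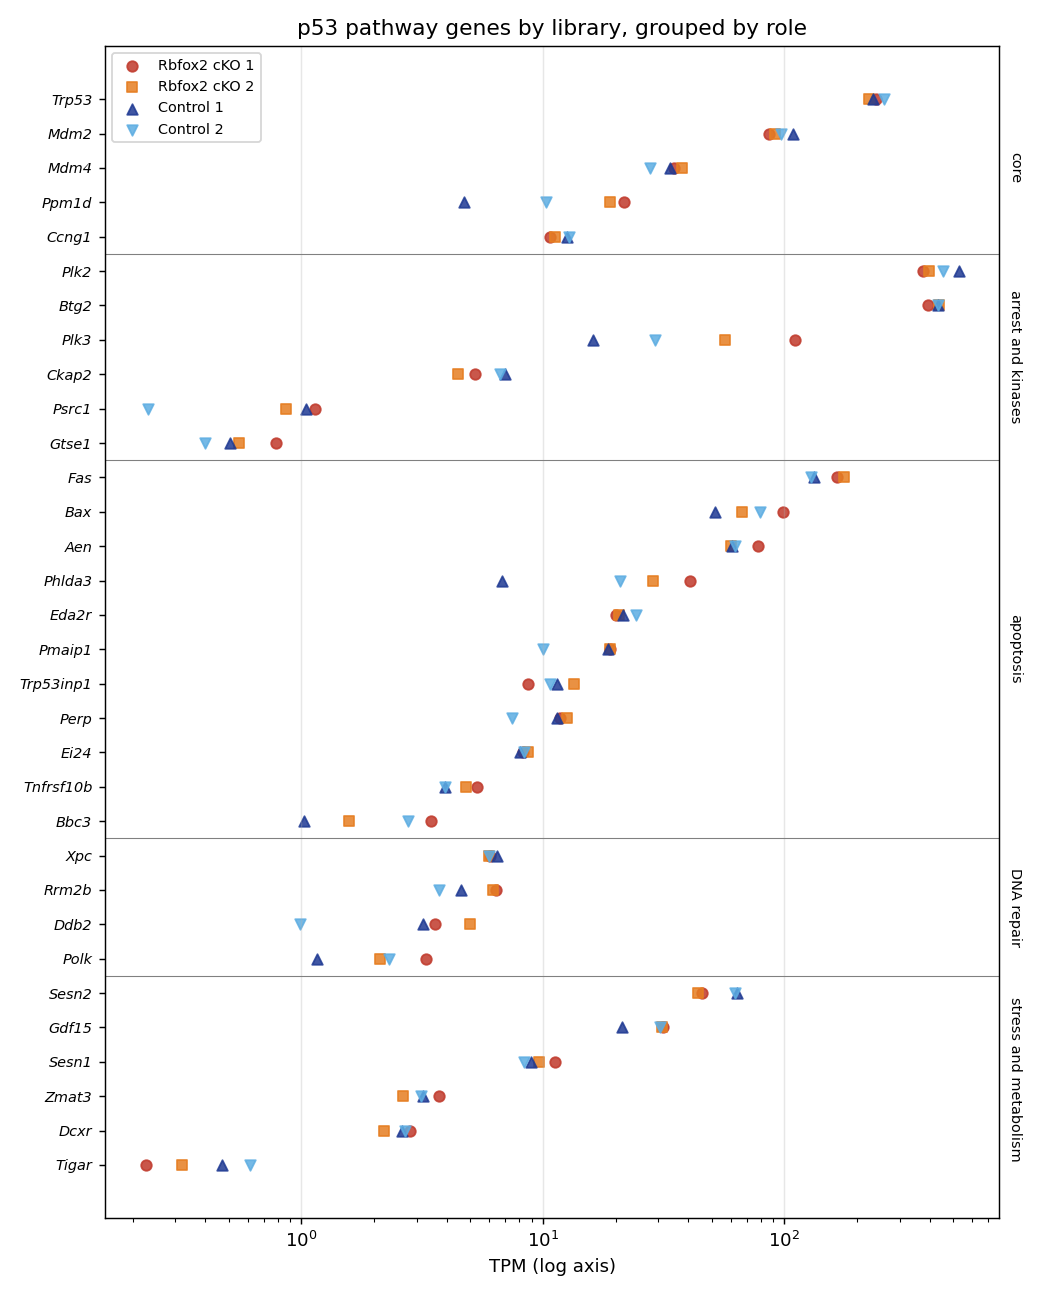
The plot of TPM by library gives the level of each of the 32 genes in TPM (log axis) in Rbfox2 cKO 1 and 2 and Control 1 and 2, grouped by role and sorted by mean level within a role. Plk3, Ppm1d and Phlda3 show cKO symbols to the right of both Control symbols, with Control 1 farthest left, while for Trp53, Btg2 and Xpc the symbols nearly coincide.

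Of the 6 genes for growth arrest, stress kinases and mitosis, Plk3 was higher in cKO and 5 did not pass. Plk3 (ENSMUSG00000028680.14; GRCm38 chromosome 4, 117128655 to 117133963, minus strand) encodes a polo-like kinase that responds to stress and is also known as an early response gene. It stood at 121 and 90.5 CPM in cKO 1 and 2, against 23.8 and 42.5 CPM in Control 1 and 2. The groups did not overlap, with cKO 1 highest and Control 1 lowest. The means were 106 ± 21.6 CPM in cKO and 33.2 ± 13.2 CPM in Control (SD, n = 2 each), a log2 fold change of 1.67 with SE 0.35 (edgeR's quasi-likelihood test, adjusted p = 0.000851). The call held in DESeq2 (adjusted p = 0.0240), with the replicate block (0.0493) and with a transcript length offset (0.00180), and was lost with DESeq2 size factors in edgeR (0.112), library totals (0.702), other filters (0.156 and 0.415) and in limma on TPM (0.202 to 0.782). The TPM were 110.2 and 56.6 in cKO, against 16.1 and 29.0 in Control, so the libraries of the cKO differed more on that scale. The log2 fold change was 1.46 without cKO 1, 1.80 without cKO 2, 1.296 without Control 1 and 2.13 without Control 2, with adjusted p from 0.142 to 1.00. Plk3 shares 84 exonic bases with Tctex1d4 on the opposite strand, which had between 13 and 25 counts per library.

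Plk2, the related kinase and the most abundant of the 32 genes in TPM, had its cKO values below Control. It stood at 457 and 705 CPM in cKO, against 872 and 737 CPM in Control (log2 fold change -0.47, SE 0.38, adjusted p = 1.00), with cKO 2 near Control 2. Btg2, an antiproliferative protein that recruits the deadenylase complex, stood at 474 and 769.7 CPM in cKO, against 706 and 696 CPM in Control (-0.17, SE 0.38, adjusted p = 1.00), and its groups overlapped. Plk2, Plk3 and Btg2 are also known as early response genes. The 22 immediate early genes summed to 11126 and 12649 CPM in cKO, against 10563 and 12934 CPM in Control, a sum carried by a few abundant genes such as Egr1. By CPM, 7 of the 22 lay above Control in both cKO libraries and 1 below. Among all genes tested that averaged 1 CPM or more, 19.2% lay above and 18.6% below. Of the 22, 1 was called higher, 0 were called lower and 21 did not pass, with a median log2 fold change of 0.06. The gene called higher was Rhob, a small GTPase, at 65.1 and 28.5 CPM in cKO, against 12.4 and 21.0 CPM in Control (1.48, adjusted p = 0.00386 in edgeR). At an unadjusted p under 0.05 there were also Nr4a1 (0.76) and Egr2 (-0.72), named after their values were seen. The part of an early response in the Plk3 difference was not tested.

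Among the 32 genes, Ckap2, Gtse1 and Psrc1 belong to mitosis and were low. Ckap2, a spindle microtubule protein, stood at 4.63 and 4.87 CPM in cKO, against 8.89 and 8.20 CPM in Control (log2 fold change -0.85, SE 0.33, adjusted p = 0.546). Its libraries agreed closely within each group and did not overlap, at 5.23 and 4.43 TPM in cKO against 6.94 and 6.65 TPM in Control. Gtse1, which binds microtubules and p53, had 82 and 85 counts in cKO, against 65 and 52 in Control, and Psrc1, another spindle protein, had 55 and 58 counts in cKO, against 71 and 23 in Control. Both averaged under 1 TPM. The 20 cell cycle genes that p53 represses through the DREAM complex had a median log2 fold change of -0.13. Of these, 6 were positive and 14 negative, against 55.0% positive over all genes tested and 49.9% of those that averaged 1 CPM or more. In edgeR 0 of the 20 passed, and 1 was at an unadjusted p under 0.05. The 3 with the highest mean CPM were Plk4, at 5.38 and 6.34 CPM in cKO against 6.001 and 5.85 CPM in Control, Bub1b, at 4.296 and 2.71 CPM in cKO against 8.12 and 4.71 CPM in Control, and Cdc20, at 2.56 and 3.69 CPM in cKO against 4.73 and 3.26 CPM in Control.

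None of the 11 genes for cell death passed the test in either direction (0 in edgeR, 1 at an unadjusted p under 0.05). That gene was Phlda3, a pleckstrin-homology protein that competes with the kinase Akt for membrane lipids (GRCm38 chromosome 1, 135766119 to 135769136, plus strand). It stood at 25.3 and 26.1 CPM in cKO, against 5.72 and 17.6 CPM in Control (log2 fold change 1.14, SE 0.33, adjusted p = 0.0732). The cKO libraries agreed closely and the Control libraries differed from each other, and without Control 1 the log2 fold change was 0.53, against 2.15 without Control 2.

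Plk3, Ppm1d and Phlda3 shared one order of libraries in the Control, Control 1 below Control 2, as did the erythroid genes. By direction alone, that order was found in 14 of the 29 p53 pathway genes that averaged 1 CPM or more, and in 44.6% of 16559 genes tested at that level. By size, Plk3, Ppm1d and Phlda3 had the widest gaps in that direction of the 32 genes. Their log2 ratios of Control 1 to Control 2 were -0.83, -1.17 and -1.62, against a median absolute gap of 0.21. In the cKO, Plk3 was higher in cKO 1 than in cKO 2 on both scales. The erythroid sum was higher in cKO 2 by CPM, but in TPM it was higher in cKO 1, at 1798 against 1471 in cKO 2. The 5 erythroid genes, 4 globins and Alas2, summed to 512 and 606 CPM in cKO, against 129.7 and 287 CPM in Control, and all 5 were called higher. All 5 erythroid genes were detected in every library. The part of red cell RNA in the differences of Plk3, Ppm1d and Phlda3 was not tested. In bulk RNA, more cells of a type and more RNA per cell cannot be told apart.

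**Figure D3:**
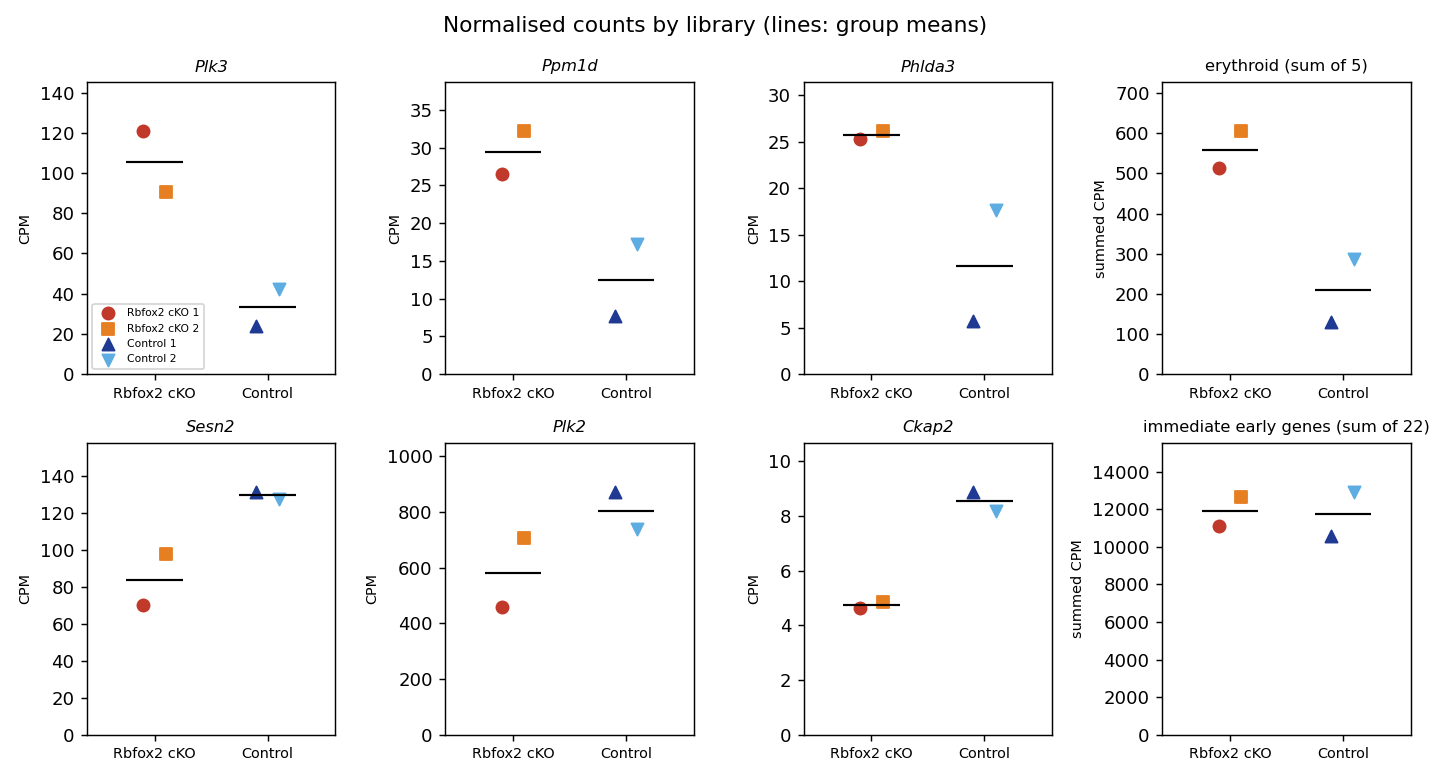
The panels of normalised counts give CPM by library for Plk3, Ppm1d, Phlda3, Sesn2, Plk2 and Ckap2, and the summed CPM of 5 erythroid and 22 immediate early genes, with Rbfox2 cKO on the left and Control on the right of each panel and lines at the group means. The erythroid sum, at 512 and 606 CPM in cKO and 129.7 and 287 CPM in Control, has the same arrangement as Ppm1d and Phlda3, while the immediate early sum overlaps between the groups.

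Neither the death receptors nor the mitochondrial death genes passed the test. Fas, the death receptor, had rank 4 by mean TPM and stood at 87.6 and 145 CPM in cKO, against 95.9 and 89.0 CPM in Control (log2 fold change 0.33, SE 0.35, adjusted p = 1.00). On the TPM scale its groups did not overlap, at 165 and 177 in cKO against 132 and 129 in Control. Without cKO 1 it was called higher in edgeR (0.67, adjusted p = 0.0191; alternatives from 0.0191 to 1.00), a fit in which 1.53% of all genes were called higher and which leaves 1 cKO library. Tnfrsf10b, the receptor for the ligand TRAIL, stood at 6.34 and 8.94 CPM in cKO, against 6.33 and 6.78 CPM in Control (0.22, SE 0.33). Eda2r, the receptor for ectodysplasin, stood at 26.8 and 44.7 CPM in cKO, against 46.2 and 49.9 CPM in Control (-0.43, SE 0.33). It lay below Control in both cKO libraries, narrowly so in cKO 2.

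Bax, which permeabilises the mitochondrial membrane, stood at 43.0 and 40.3 CPM in cKO, against 29.7 and 45.2 CPM in Control (0.15, SE 0.33), and 8.51% of its 50-mers also occur in Gm45808. Pmaip1, the BH3-only protein Noxa, stood at 22.7 and 33.3 CPM in cKO, against 29.6 and 14.2 CPM in Control (0.35, SE 0.32). Bbc3, the BH3-only protein Puma, was rare at 2.19 and 1.22 CPM in cKO, against 1.11 and 1.90 CPM in Control (0.18, SE 0.46). For these 3 genes the groups overlapped. Aen, a nuclease of apoptotic cells, Perp, a membrane protein of desmosomes, Ei24, a membrane protein of the endoplasmic reticulum, and Trp53inp1, which acts in autophagy and cell death, also overlapped, with log2 fold changes of -0.22, 0.24, -0.16 and -0.08. Trp53inp1 had the widest split between the cKO libraries of these, at 19.2 and 44.4 CPM in cKO 1 and 2, against 34.9 and 32.04 CPM in Control.

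None of the 4 genes for DNA repair passed (0 in edgeR, 1 at an unadjusted p under 0.05), and 3 had positive log2 fold changes. Ddb2, which recognises ultraviolet damage, stood at 3.39 and 6.76 CPM in cKO, against 3.97 and 1.33 CPM in Control (0.94, SE 0.35, adjusted p = 0.483). The groups overlapped, and the log2 fold change was 0.29 without cKO 2 and 1.92 without Control 1. Ddb2 shares 652 exonic bases, 23.8% of its exonic length, with Acp2 on the opposite strand, and reads of such a pair may not have been separated. Rrm2b, the p53-inducible subunit of ribonucleotide reductase, stood at 10.6 and 13.8 CPM in cKO, against 10.5 and 7.30 CPM in Control (0.46, SE 0.32, adjusted p = 1.00). The groups did not overlap, but cKO 1 stood above Control 1 by a small margin. Rrm2b shares 734 exonic bases with the antisense gene Gm49085, which had 516 and 637 counts in cKO, against 540 and 349 in Control. Polk, a translesion polymerase, stood at 4.23 and 3.89 CPM in cKO, against 2.34 and 4.01 CPM in Control (0.35, SE 0.36), and Xpc, a damage sensor of excision repair, at 10.3 and 14.5 CPM in cKO, against 14.7 and 13.7 CPM in Control (-0.20, SE 0.32).

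Of the 6 genes for stress and metabolism, 0 passed in edgeR, and 0 did at an unadjusted p under 0.05. Sesn2, a leucine sensor that restrains mTORC1 and a target of p53 and ATF4, stood at 69.99 and 97.7 CPM in cKO, against 131 and 128 CPM in Control (log2 fold change -0.63, SE 0.35, adjusted p = 1.00). Both cKO libraries lay below both Control libraries, as they did in TPM, at 45.7 and 43.9 in cKO against 63.5 and 62.5 in Control. Its paralog Sesn1 stood at 15.1 and 19.3 CPM in cKO, against 16.6 and 15.7 CPM in Control (0.09, SE 0.32). Tigar, which lowers glycolytic flux, had 32 and 68 counts in cKO, against 82 and 109 in Control, and a fitted log2 difference of -1.06 (SE 0.58, adjusted p = 1.00). Gdf15, a secreted stress cytokine, stood at 21.4 and 30.9 CPM in cKO, against 19.6 and 27.7 CPM in Control (0.15, SE 0.32). Zmat3, a zinc finger RNA-binding protein, stood at 9.63 and 9.93 CPM in cKO, against 11.5 and 11.8 CPM in Control (-0.25, SE 0.32), with close agreement within each group. Dcxr, a dicarbonyl reductase, had between 97 and 114 counts per library.

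The libraries of each group also differed from one another. The absolute log2 gap between cKO 1 and cKO 2 had a median of 0.51 over the 32 genes and reached 1.21 in Trp53inp1, while that between Control 1 and Control 2 had a median of 0.21 and reached 1.68 in Psrc1. By CPM, these cKO gaps mostly ran one way. Among the 29 genes that averaged 1 CPM or more, 25 were lower in cKO 1 than in cKO 2 (86.2%), with a median log2 ratio of -0.50, against 70.8% of 16559 genes tested at that level, with a median of -0.34. Between Control 1 and Control 2 the split was 14 of 29, with a median log2 ratio of 0.02. CPM includes the TMM factor, which was 1.27 in cKO 1 and 0.876 in cKO 2. The 32 genes summed to 1964 CPM in cKO 1 and 2887 CPM in cKO 2, but to 1852 and 1805 TPM. For this sum, the gap between the cKO libraries depended on the scale. By CPM, Plk3, Bax, Bbc3 and Polk were the 4 genes that were higher in cKO 1. The fits below with 1 library left out also use TMM scaling. In TPM, Aen stood at 77.8 in cKO 1, above both Control libraries at 60.6 and 62.2. Sesn2, Plk2, Eda2r, Mdm2, Btg2 and Trp53inp1 lay below both Control libraries in cKO 1 in TPM as well. With cKO 2 left out, which leaves cKO 1, the library that stood apart, as the only cKO library and takes the spread from the Control libraries alone, 7 of the 32 genes were called lower in edgeR, namely Sesn2, Plk2, Eda2r, Mdm2, Btg2, Trp53inp1 and Aen, with log2 fold changes from -0.96 for Sesn2 to -0.59 for Aen, and 0 were called higher. In that fit 4.79% of all genes were called lower. Without cKO 1, Fas was called higher and 0 lower, and Trp53inp1, Btg2, Aen, Trp53, Xpc and Ei24 turned positive, at 0.42, 0.15, 0.04, 0.01, 0.05 and 0.12.

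**Figure D4:**
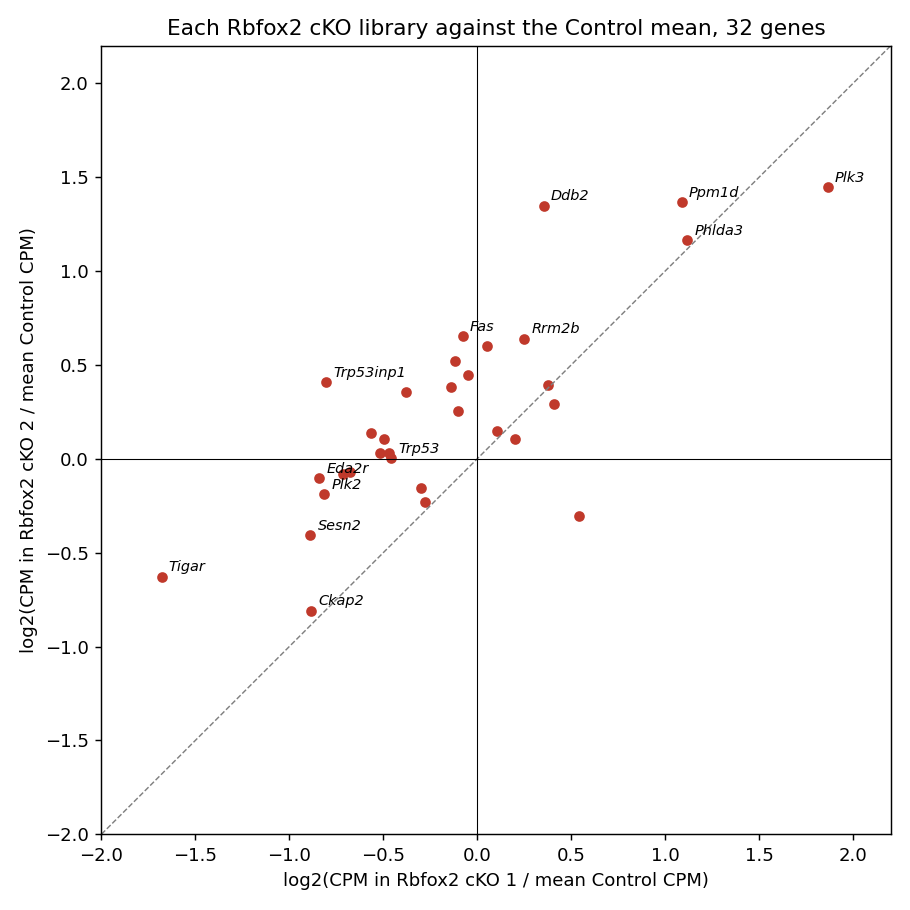
The scatter of the cKO libraries gives, for each of the 32 genes, the log2 ratio of its CPM to the mean Control CPM in cKO 1 (x axis) and in cKO 2 (y axis), with a dashed line where they are equal. Plk3 at 1.87 and 1.45, Ppm1d at 1.09 and 1.37 and Phlda3 at 1.12 and 1.16 lie far from 0 in both libraries, Ckap2 at -0.88 and -0.81 and Sesn2 at -0.89 and -0.41 lie below 0 in both, and most other points lie above the dashed line.

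The arrangement of the groups depended on the scale. By CPM, the cKO values all exceeded the Control values for 5 of the 32 genes, against 18.0% of all genes tested, and below for 8, against 13.3%. Among the 29 that averaged 1 CPM or more these counts were 4 above, against 19.2%, and 7 below, against 18.6%. By TPM, over the 29 genes that averaged 1 TPM or more, they lay above for 12, against 32.2% of genes tested at that level, and below for 6, against 16.0%. On both scales at once and among those 29, Plk3, Ppm1d, Phlda3 and Rrm2b lay above (4, against 16.7% of genes tested at that level) and Sesn2, Plk2, Ccng1, Ckap2 and Eda2r below (5, against 12.1%). Of the 3 rarer genes, Gtse1 lay above and Tigar below on both scales. With library totals in place of TMM, the median log2 fold change of all genes moved by 0.19, and relative to that median Plk3 stood at 1.63 and Ppm1d at 1.12, against 1.61 and 1.17 with TMM.

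Counts and TPM together imply a mean length for the transcripts behind a gene, which moves when long and short transcripts change in proportion. Between cKO and Control the log2 ratio of this length lay from -0.21 to 0.16 for the central 90% of 13626 genes with at least 100 counts in each library. Among the regulators, Mdm4 implied 4808 and 5067 bases in cKO, against 5266 and 5291 bases in Control (log2 ratio -0.10), and Mdm2 2312 and 2331 bases in cKO, against 2374 and 2391 bases in Control (-0.04). Both were shorter in both cKO libraries, by less than the central 90% of genes spans. Aen implied 3086 and 4017 bases in cKO, against 4227 and 4120 bases in Control (-0.25), a difference set mainly by cKO 1, and its fold change was -0.22 from counts but positive from TPM, at 0.15. Ckap2 implied 2007 and 1715 bases in cKO, against 2147 and 2097 bases in Control (-0.19), and Eda2r 3031 and 3361 bases in cKO, against 3611 and 3510 bases in Control (-0.16). For Plk3, at 2491 and 2490 bases in cKO against 2485 and 2490 bases in Control, and for Phlda3 the length was the same in all libraries to within 2%, so the count difference did not come with a change in implied length. Ppm1d varied more between libraries, at 2775 and 2659 bases in cKO against 2726 and 2850 bases in Control (-0.04), and its groups overlapped.

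The wider pathway was read from lists chosen beside the 32 genes. Over all genes tested, 55.0% of log2 fold changes were positive, and 49.9% among those that averaged 1 CPM or more. Of 37 other p53 targets 0 passed in edgeR, with 3 at an unadjusted p under 0.05, 24 positive and 13 negative values and a median log2 fold change of 0.23. The 3 with the highest mean CPM were Cd82, a tetraspanin, at 826 and 958 CPM in cKO against 1017 and 1083 CPM in Control, Cdkn1a, the cyclin-dependent kinase inhibitor p21 and best-known p53 target, at 470.01 and 651 CPM in cKO against 399 and 552 CPM in Control (0.24, SE 0.37, adjusted p = 1.00), and Thbs1, a secreted thrombospondin, at 226 and 265 CPM in cKO against 270.1 and 189 CPM in Control. On the TPM scale the third by level was Rps27l, a ribosomal protein paralog named after its values were seen, at 371 and 406 TPM in cKO, against 490 and 481 TPM in Control (log2 fold change from counts -0.44, SE 0.35, adjusted p = 1.00). Of 25 p53 regulators and damage kinases 0 passed in edgeR, with 2 at an unadjusted p under 0.05 and a median log2 fold change of -0.04. Their members with the highest mean CPM were Rpl5, at 523 and 669 CPM in cKO against 744 and 748 CPM in Control, Rpl11, at 259 and 346 CPM in cKO against 365 and 481 CPM in Control, both ribosomal proteins that can bind Mdm2, and the acetyltransferase gene Crebbp, at 196 and 393 CPM in cKO against 386 and 316 CPM in Control.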

How the data were processed

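The deposited tables give, for 4 libraries, estimated counts per gene, whole as deposited, and TPM (transcript abundance per length, each column scaled to one fixed sum). Per the submitters' processing notes, HISAT2 2.1.0, StringTie 1.3.6 and GRCm38 were used. The sources used here do not give their roles, the strand setting, the annotation or filters. Coordinates come from GENCODE M21 on GRCm38, matched for 55394 of 55487 identifiers, and promoters from RefSeq on GRCm38.p6. Counts were compared in edgeR 4.0.16 (TMM, filterByExpr, robust quasi-likelihood test; R 4.3.3), adjusted by Benjamini-Hochberg over 38143 genes at 0.05. The SE is the fold change over the square root of F. The common biological coefficient of variation was 0.373, so the spread between libraries, more than counting error, limits precision. Libraries of a group differed beyond sampling noise (chi-square over degrees of freedom 83.5 in cKO and 49.6 in Control). The labels name no separate animals, so p-values measure only how these libraries vary, perhaps for technical reasons. Implied transcript length is counts over TPM, scaled per library on genes with 1 transcript and over 200 counts, of which at least 98.7% lay within 1% of it. Shared 50-mers were searched in GENCODE transcripts. Alternatives were DESeq2 1.42.0, limma 3.58.1 on log2(TPM + 1) or log2(TPM + 0.1), other scalings and filters, a length offset, a replicate block and each library left out. Scripts were tested on simulated data. The 32 genes and the lists were chosen with earlier results of these data known. All 32 genes are named. A naming rule covered the other p53 targets, the p53 regulators, the DREAM genes and the immediate early genes. It named up to 4 called genes with the smallest adjusted p or, with none called, the 3 whose mean CPM was highest. Cell type markers were given as sums, and a gene of a list outside this rule was chosen after its values were seen.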

Additional observations from a re-analysis of the deposited data

How the results depend on the processing

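The number of p53 pathway genes called was 2 with TMM and 0 with DESeq2 size factors in edgeR, when library totals alone set the scale, when all genes were kept, when a gene needed 5 CPM or more in 2 libraries, and in limma on log2(TPM + 1) or log2(TPM + 0.1). It was 1 in DESeq2 (Plk3), 1 with the replicate block (Plk3), 1 in limma with no filter (Ppm1d) and 2 with the length offset. Leaving out 1 library gave between 0 and 7. The number of all genes called was 210, and 119 with DESeq2 size factors, 282 with library totals (74 of them shared with the 210), 28 with no filter, 14 with the CPM minimum, 86 in DESeq2, 96 with the replicate block, 53 and 102 in limma with pseudocounts of 1 and 0.1, 404 in limma with no filter, 129 with the length offset, and between 51 and 2267 with 1 library left out. The cause was not tested. Every alternative gave Plk3 and Ppm1d positive log2 fold changes, from 1.296 to 2.13 for Plk3 and from 0.75 to 1.92 for Ppm1d, both limits from leaving out a Control library. The adjusted p of Plk3 ran from 0.00180 to 1.00 over the alternatives other than crossed numbers. The codes of same-numbered libraries share a part whose meaning the labels do not give. The deviations of same-numbered libraries had a correlation of -0.12 across genes, and with no stated pairing and 2 pairs the numbers were not taken as pairs. With the numbers crossed, an alternative added after the data were seen, 3 of the 32 genes and 243 of all genes were called. The sign of some uncalled values changed. Mdm4 stood at -0.013 with DESeq2 size factors, -0.0050 with the replicate block and -0.0050 with crossed numbers. Ei24 stood at 0.037, 0.041 and 0.037 in limma with pseudocounts of 1 and 0.1 and with no filter, and Aen at 0.15, 0.16 and 0.15 in those fits. Leaving out 1 library turned the sign of Trp53 (-0.53 to 0.014), Mdm4 (-0.45 to 0.37), Bax (-0.13 to 0.47), Bbc3 (-0.29 to 0.59), Pmaip1 (-0.10 to 0.96), Trp53inp1 (-0.87 to 0.42), Sesn1 (-0.17 to 0.27), Perp (-0.18 to 0.59), Fas (-0.15 to 0.67), Gdf15 (-0.21 to 0.40), Ei24 (-0.56 to 0.12), Tnfrsf10b (-0.12 to 0.46), Xpc (-0.54 to 0.045), Polk (-0.00070 to 0.77), Btg2 (-0.63 to 0.15), Aen (-0.59 to 0.042) and Psrc1 (-0.50 to 1.18), with the lowest and highest value in brackets. The spread between 2 libraries a group limits all of these values.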

Other observations

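The genes in this paragraph were chosen after their values were seen, as the other p53 targets and p53 regulators with an unadjusted p under 0.05, and none passed the adjusted threshold. Gadd45a, a stress sensor that binds PCNA, stood at 172 and 119 CPM in cKO, against 74.4 and 72.3 CPM in Control (log2 fold change 0.98, SE 0.35, adjusted p = 0.355 in edgeR). Tap1, the peptide transporter for antigen presentation, stood at 8.73 and 16.1 CPM in cKO, against 6.56 and 6.71 CPM in Control (0.90, SE 0.32, adjusted p = 0.370 in edgeR). Trp63, the p53 family member of epithelia, stood at 5.03 and 4.56 CPM in cKO, against 2.40 and 1.90 CPM in Control (1.16, SE 0.37, adjusted p = 0.181 in edgeR). Ppp1r13l, whose product iASPP inhibits p53, stood at 3.51 and 2.66 CPM in cKO, against 1.05 and 1.78 CPM in Control (1.12, SE 0.42, adjusted p = 0.457 in edgeR). The fifth, Apobec3, a cytidine deaminase, had lower values in cKO, at 4.59 and 3.71 CPM, against 7.59 and 7.11 CPM in Control (-0.82, SE 0.34, adjusted p = 0.627 in edgeR).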
